A study of Mus musculus with 12 samples.

Results

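Syk, Lck, Hcls1, Itgal, Selplg, Cxcr4, Trpm2, Laptm5, Ncf4 and Prtn3 are 10 mouse genes for the signalling, adhesion and granules of white blood cells, taken from the 37991 genes counted in each library. They were chosen by their read counts in these 12 libraries, because the counts differed widely between the cell lines, so their levels are given as a description, without a test. All 12 libraries hold polyadenylated RNA of MEL cells, a mouse erythroleukemia line that matures toward red cells when induced, and all were made from induced cells. The treatment label of the control group reads only control, with no knockdown or construct named. LDB1 is a nuclear adaptor protein that joins erythroid transcription factors and enhancers. The other 3 groups all carry a knockdown of LDB1. The knockdown alone is called KD here, knockdown cells with a full-length Ldb1 construct are called FL, and knockdown cells with an Ldb1 construct that the labels name delta 4/5 are called delta45. Each group has 3 libraries. The sources used here do not give the promoter of the constructs, the inducer, or whether a line is 1 clone.

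White cells use these genes in a chain from surface to effector. Selectin ligands and integrins hold a cell to a vessel wall, chemokine receptors set its direction, SRC and SYK family kinases pass on signals from integrins and immune receptors, and granule proteases and the NADPH oxidase act at the end. Erythroid cells share early progenitors with these lineages, and MEL cells come from a virus-transformed erythroid precursor.

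Levels are CPM, read counts scaled to a common library size, by the TMM method, and are given as mean ± SD with n = 3 libraries. Differences are log2 values ± standard error from the edgeR fit to all 12 libraries. Gene reads ranged from 8783970 to 20464959 per library, and the share of reads with several alignments differed by group: control had 50.6 to 53.31%, KD 42.69 to 48.51%, FL 42.26 to 47.12% and delta45 38.69 to 39.22%. The targeted gene followed the labels: Ldb1 stood at 718 ± 71.2 CPM in control, 130 ± 31.1 in KD, 765 ± 15.4 in delta45 and 3439 ± 244 in FL, and reads of a construct cannot be told from those of the cells' own gene. All 10 erythroid markers examined had reads in every group, which by itself does not identify the cells, since some markers of other cell types had reads in every group too. They summed to 10880 to 11160 CPM per control library, 2148 to 4088 for KD, 3204 to 3481 for delta45 and 23830 to 30910 for FL. The labels do not state that replicates were grown as separate cultures. The p-values therefore rest on the spread among these samples alone, and that spread may be technical. In bulk RNA, fewer cells that carry a transcript and less of it per cell cannot be told apart.

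The sequences before the start sites of 3 of the genes are shown because Syk and Hcls1 had no read in any KD, delta45 or FL library, while Laptm5 had many in all 4 groups. They are the 250 bases before each RefSeq start site, 5′ to 3′ on the gene's strand (the plus strand for all), in build GRCm38.p6. Capitals mark the letters GATAA (the core of GATA sites), GAGGAA (the core of PU.1 sites), TGTGGT (the core of RUNX sites) and TATAAA (the TATA box) on either strand. Syk has a pair of start sites in that table.
Syk, first start site, chr13:52583187-52583436: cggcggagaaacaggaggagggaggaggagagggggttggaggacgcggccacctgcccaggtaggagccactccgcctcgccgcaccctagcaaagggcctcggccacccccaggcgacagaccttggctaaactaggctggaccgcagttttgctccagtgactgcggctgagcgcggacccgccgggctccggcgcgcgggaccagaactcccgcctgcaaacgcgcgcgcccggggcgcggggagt
Syk, second start site, chr13:52596632-52596881: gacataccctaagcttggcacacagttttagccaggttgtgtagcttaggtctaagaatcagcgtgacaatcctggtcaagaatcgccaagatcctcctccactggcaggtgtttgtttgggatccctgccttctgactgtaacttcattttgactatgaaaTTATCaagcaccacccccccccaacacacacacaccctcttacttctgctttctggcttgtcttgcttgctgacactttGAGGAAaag
Hcls1, chr16:36934733-36934982: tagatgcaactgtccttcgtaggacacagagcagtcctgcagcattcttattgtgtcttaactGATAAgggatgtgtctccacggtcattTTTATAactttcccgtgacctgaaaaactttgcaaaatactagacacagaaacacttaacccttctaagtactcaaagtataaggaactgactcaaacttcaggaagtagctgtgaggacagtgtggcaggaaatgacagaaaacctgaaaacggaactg
Laptm5, chr4:130913066-130913315: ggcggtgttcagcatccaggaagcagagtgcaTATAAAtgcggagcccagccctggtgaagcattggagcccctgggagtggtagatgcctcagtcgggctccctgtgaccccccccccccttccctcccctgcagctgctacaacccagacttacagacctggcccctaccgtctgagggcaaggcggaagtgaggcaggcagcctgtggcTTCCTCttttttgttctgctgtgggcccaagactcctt
The first Syk window, counted from 250 bases before to 50 after the start, held 31 CG pairs and none of the 4 motifs, against a median of 7 CG pairs in the 32851 windows of the table. The second Syk window held 2 CG pairs, a GATAA at -88 on the other strand and a GAGGAA at -9. The Hcls1 window held a GATAA at -187 and a TATAAA on the other strand at -160. The Laptm5 window held a TATAAA at -218 and a GAGGAA on the other strand at -38. Of all windows, 25.4% held GATAA, 28.3% GAGGAA, 16.8% TGTGGT and 13.6% TATAAA. The letters CANNTG, the E-box that TAL1 dimers read, were left in lower case because 72.3% of windows hold them. They occurred 2 times in each Syk window, 2 times in the Hcls1 window and 1 time in the Laptm5 window. A match is only a match of letters. The table had entries for 7 of the 10 genes; Itgal, Ncf4 and Selplg were without one.

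**Figure D1:**
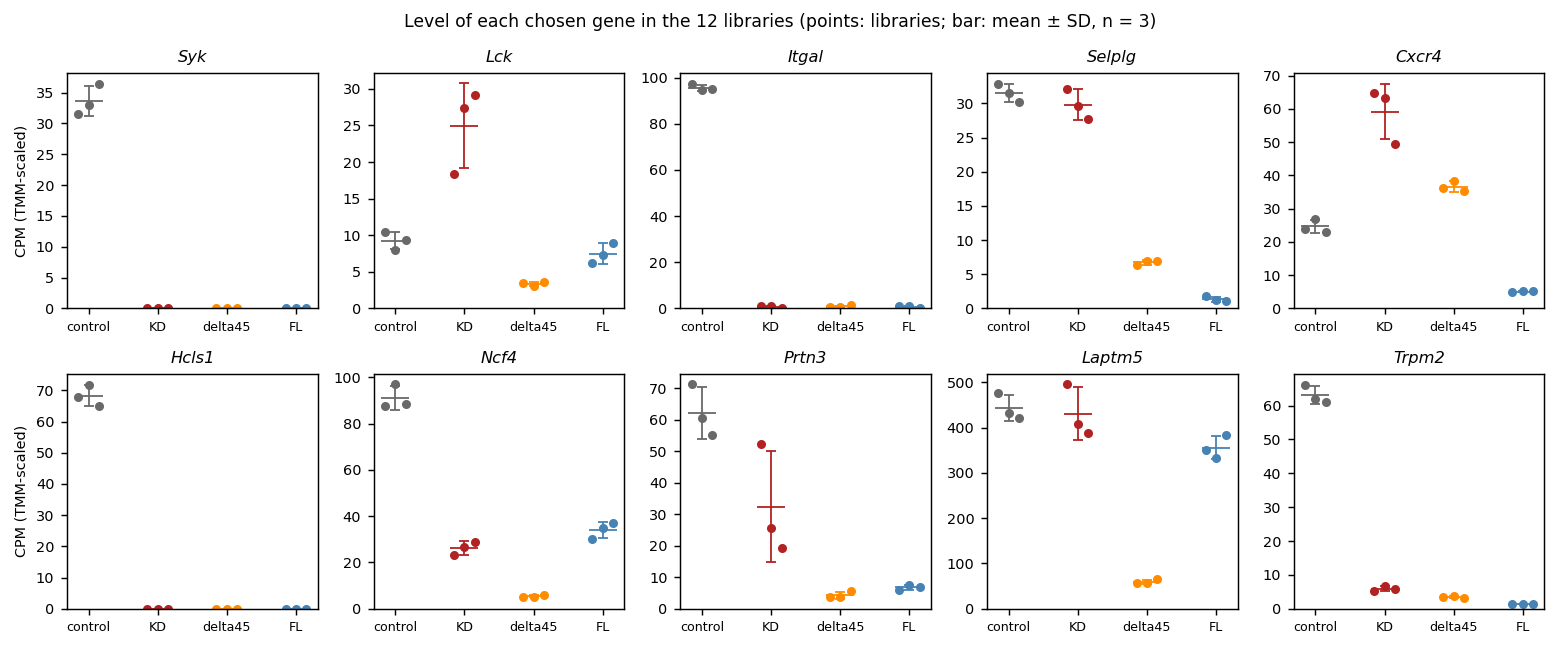
Level of each of the 10 genes (CPM after TMM scaling, linear axes from 0, each gene on its own scale) in the 12 libraries. Points are libraries and bars the mean ± SD of 3 libraries. Syk, Hcls1, Itgal and Trpm2 stood high in control only, Laptm5 was low in delta45 only, and Selplg, Cxcr4 and Trpm2 were lowest in FL.

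Of the kinases, Syk (ENSMUSG00000021457, chromosome 13) couples immune receptors and integrins to phospholipase C and the actin skeleton. It had 294, 329 and 618 reads in the control libraries, or 31.5, 33.0 and 36.3 CPM. It had 0 reads in each of the 9 KD, delta45 and FL libraries. Against 3 reads over a group, Syk was at least 392-fold lower in KD, at least 562-fold lower in delta45 and at least 394-fold lower in FL than in control. Such bounds cover counting error only and move with depth: on the log2 scale they were -8.61, -9.14 and -8.62, and -7.86, -8.32 and -7.67 without KD replicate 1, delta45 replicate 1 and FL replicate 3. FL, the group with the most Ldb1 mRNA, had no Syk read either, and a link between Syk and the Ldb1 level was not tested.

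Lck (ENSMUSG00000000409, chromosome 4), the SRC family kinase that starts T cell receptor signalling, followed another order. The control libraries held 10.4, 8.02 and 9.40 CPM and the KD libraries 18.3, 27.4 and 29.2 CPM. The delta45 libraries held 3.42, 3.07 and 3.56 CPM and the FL libraries 6.15, 7.32 and 8.95 CPM. Lck was thus highest in KD and lowest in delta45, with no overlap of either with another group, while FL and control overlapped. The KD mean was 2.68 times the control mean (log2 difference 1.42 ± 0.203), delta45 lay 7.42-fold below KD (-2.89 ± 0.217), and FL lay 3.30-fold below KD (-1.72 ± 0.206).

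Among 34 tested genes of SYK and SRC kinase signalling, 3 were higher and 17 lower in delta45 than in KD, with a median log2 change of -0.31 against -0.01 over all 12837 tested genes. The 3 became 6 without KD replicate 1. A gene is called here at an edgeR adjusted p under 0.05, and of all tested genes 29.2% were called higher and 30.7% lower in this comparison. Src, the founding member of Lck's family, rose from 14.0 ± 1.07 CPM in control to 66.2 ± 6.30 in KD (log2 change 2.24 ± 0.113, edgeR adjusted p = 2.10e-08), fell to 19.4 ± 0.802 in delta45 and stood at 96.5 ± 4.71 in FL. Lyn, the SRC family kinase of B cells and myeloid cells, was called higher in FL than in KD (87.8 ± 5.92 against 39.1 ± 5.22 CPM, edgeR adjusted p = 8.90e-06). Csk, which holds SRC family kinases inactive, was 1.61-fold higher in FL than in control (edgeR adjusted p = 7.00e-05).

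The adaptors below these kinases went different ways. Lat, the membrane scaffold of T cell receptor signalling, rose 10.1-fold from 2.38 ± 0.959 CPM in control to 24.9 ± 2.60 in KD (edgeR adjusted p = 7.58e-07). Lcp2 (SLP-76), the adaptor that Syk and Zap70 phosphorylate, had 361 reads over the control libraries and 21, 9 and 7 over those of KD, delta45 and FL. Its fall from control to KD was -4.02 on the log2 scale and -5.01 without KD replicate 1 (edgeR adjusted p = 8.9e-06 and 8.71e-07), so it was called in both. Sla, an adaptor that damps receptor signalling, was 14.9-fold lower in delta45 than in KD (3.79 ± 1.34 against 57.6 ± 13.8 CPM, edgeR adjusted p = 1.55e-07). Pik3ap1, which links Syk to phosphoinositide 3-kinase in B cells, stood at 7.78, 6.53 and 6.56 CPM in control, KD and FL and at 0.276 in delta45 (log2 change from KD -4.61 ± 0.499, and -5.25 without delta45 replicate 3). The SYK family kinase Zap70 had 4, 5, 14 and 3 reads over the groups control, KD, delta45 and FL, the phosphatase Ptprc (CD45) had 9, 2, 0 and 0, and the adaptor Blnk 72, 7, 3 and 0. Plcg2, the phospholipase downstream of Syk, stood at 44.2 ± 2.32, 57.9 ± 15.3, 51.9 ± 1.64 and 61.8 ± 2.15 CPM.

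Hcls1 (ENSMUSG00000022831, chromosome 16) encodes HS1, the actin-binding substrate of Syk and Lyn in blood cells. Its control libraries held 634, 716 and 1106 reads, or 67.9, 71.8 and 65.0 CPM. It had 0 reads in all 9 KD, delta45 and FL libraries. The bounds were at least 796-fold lower in KD, at least 1142-fold in delta45 and at least 801-fold in FL, or -9.64, -10.16 and -9.65 on the log2 scale. They were -8.88, -9.34 and -8.69 without KD replicate 1, delta45 replicate 1 and FL replicate 3. Of the 10424 tested genes with a control mean of 5 CPM or more, 13 had 0 reads in every KD, delta45 and FL library, Syk and Hcls1 among them. Of the 9469 tested genes with means of 5 CPM or more in KD, delta45 and FL alike, 10 had 0 reads in every control library.

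Cttn, the paralog of Hcls1 used by most tissues, rose instead. It stood at 64.7 ± 1.16 CPM in control, 149 ± 12.3 in KD, 122 ± 3.38 in delta45 and 328 ± 3.88 in FL, 2.30-fold higher in KD and 5.07-fold higher in FL than in control (edgeR adjusted p = 5.67e-07 and 8.73e-10). Hax1, a protein that binds HS1, held 22.0 ± 4.36, 22.4 ± 4.59, 19.7 ± 2.18 and 14.9 ± 1.48 CPM in the same order. Among 21 tested genes of the leukocyte actin partners, 5 were higher and 11 lower in delta45 than in KD. Their median log2 change was -0.29, and 29.2 and 30.7% of all tested genes were called higher and lower. The 5 became 2 without KD replicate 3 or without delta45 replicate 1. Coro1a, an actin-binding protein of white cells, was 4.39-fold lower in delta45 than in KD and Myo1g, a membrane myosin of white cells, 6.21-fold lower (edgeR adjusted p = 2.10e-05 and 1.60e-05). Arhgdib, an inhibitor of small GTPases in blood cells, stood at 138 ± 7.65 CPM in control and 123 ± 14.5 in FL but at 39.2 ± 9.13 in KD and 16.2 ± 1.5 in delta45, 7.57-fold lower than in FL (edgeR adjusted p = 1.49e-08).

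Itgal (ENSMUSG00000030830, chromosome 7), the alpha chain of the integrin LFA-1, was close to 0 outside control. The control libraries held 906, 942 and 1617 reads, or 97.1, 94.5 and 95.0 CPM. The KD libraries held 13, 8 and 4 reads, the delta45 libraries 15, 11 and 17 and the FL libraries 10, 8 and 7. The means were 0.708 ± 0.311 CPM in KD, 0.897 ± 0.337 in delta45 and 0.795 ± 0.336 in FL, which is 0.741, 0.940 and 0.832% of control. Itgal was therefore 132-fold, 109-fold and 129.6-fold lower than in control (log2 differences -7.05 ± 0.286, -6.77 ± 0.270 and -7.02 ± 0.287). The KD, delta45 and FL libraries overlapped, and the sign of their small differences changed with library totals as the scale or when 1 library was left out.

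Itgb2, the beta chain that pairs with the Itgal product, kept far more of its level. It stood at 98.2 ± 1.58 CPM in control, 51.3 ± 10.7 in KD, 14.2 ± 0.439 in delta45 and 60.7 ± 1.74 in FL. It was 1.91-fold lower in KD than in control, 3.63-fold lower in delta45 than in KD and 4.28-fold higher in FL than in delta45 (edgeR adjusted p = 6.47e-05, 3.01e-07 and 4.07e-08). FL and KD were not called different in Itgb2 (log2 change 0.24 ± 0.128, edgeR adjusted p = 0.125), a p that does not show equal levels, but they were without KD replicate 1 (log2 change 0.49). Fermt3 (kindlin-3), which switches integrins on in blood cells, was highest in FL at 1687 ± 121 CPM, against 450 ± 15.6 in control, 745 ± 189 in KD and 464 ± 32.2 in delta45 (FL against KD 2.26-fold, edgeR adjusted p = 3.77e-05). Rap1b, the small GTPase upstream of LFA-1, was 7.31-fold higher in FL than in KD, at 1905 ± 127 against 260.5 ± 59.2 CPM (edgeR adjusted p = 8.65e-07).

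The ligands of LFA-1 differed as well. Icam1 was 2.27-fold lower in delta45 than in KD (48.6 ± 2.42 against 111 ± 15.9 CPM, edgeR adjusted p = 7.16e-06), and Icam2 was 11.3-fold lower in FL than in KD (0.739 ± 0.206 against 8.40 ± 1.78 CPM, edgeR adjusted p = 1.17e-06). Cd44, the hyaluronan receptor, was 5.17-fold lower in FL than in delta45 (edgeR adjusted p = 8.47e-06). Over the integrin and adhesion list, 3 of 22 tested genes were higher and 11 lower in delta45 than in KD (median log2 change -0.31). For all tested genes the shares were 29.2 and 30.7%. The 3 became 5 without the filter on low counts and 7 without KD replicate 1.

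**Figure D2:**
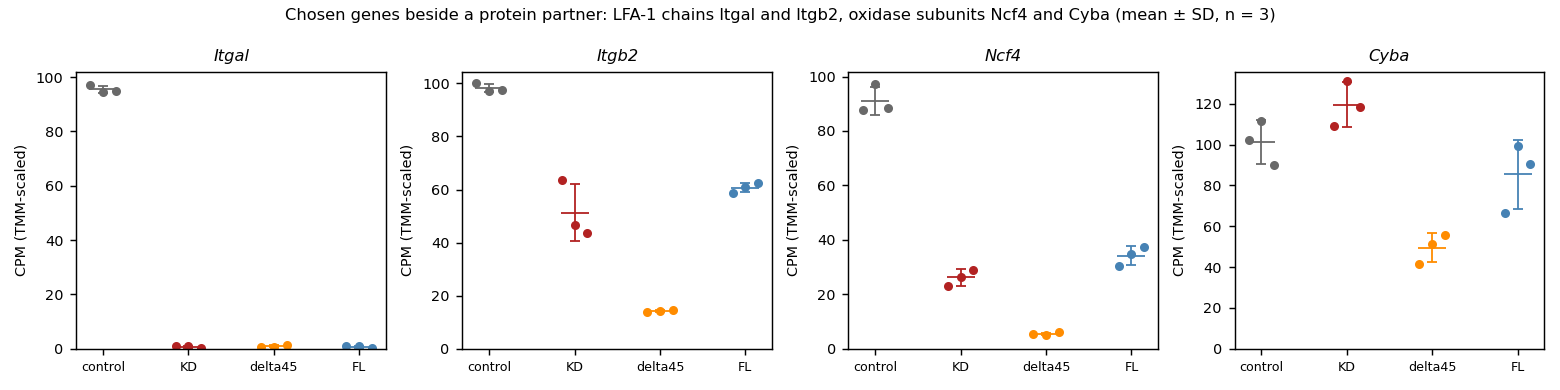
Levels of Itgal beside Itgb2, the LFA-1 chains, and of Ncf4 beside Cyba, subunits of the phagocyte oxidase (CPM after TMM scaling, linear axes from 0). Points are libraries and bars the mean ± SD of 3 libraries. Outside control, group means were 0.71 to 0.90 CPM for Itgal and 14.2 to 60.7 CPM for Itgb2, and Ncf4 and Cyba were both lowest in delta45.

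Selplg (ENSMUSG00000048163, chromosome 5) encodes PSGL-1, the ligand that binds selectins. It held 32.8, 31.6 and 30.1 CPM in the control libraries and 32.1, 29.6 and 27.7 in the KD libraries. It held 6.33, 6.96 and 6.89 CPM in delta45 and 1.77, 1.28 and 1.06 in FL. Control and KD overlapped, every delta45 library lay below both, and every FL library lay below delta45. FL was 22.3-fold below KD (log2 difference -4.48 ± 0.182) and 5.02-fold below delta45 (-2.33 ± 0.187), and delta45 was 4.44-fold below KD (-2.15 ± 0.146).

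PSGL-1 binds selectins only after it has been glycosylated and sulfated. Fut7, the fucosyltransferase of that step, was scarce and 8.46-fold lower in FL than in KD (0.353 ± 0.0614 against 2.98 ± 0.407 CPM, edgeR adjusted p = 1.61e-05). Fut4, another fucosyltransferase of white cells, was 3.31-fold lower in delta45 than in KD (edgeR adjusted p = 6.75e-05). St3gal6, a sialyltransferase, was ordered the other way, at 4.41 ± 1.11 CPM in control, 10.7 ± 1.36 in KD, 23.4 ± 1.59 in delta45 and 65.8 ± 2.71 in FL (14.6-fold from control to FL, edgeR adjusted p = 1.88e-09). Tpst2, a tyrosine sulfotransferase, rose 3.27-fold from control to KD and was 2.75-fold lower in delta45 than in KD (edgeR adjusted p = 7.58e-07 and 1.96e-06). Gcnt1, the core 2 branching enzyme, had 4, 1, 0 and 0 reads over control, KD, delta45 and FL. Of the 12 tested genes for selectin ligand synthesis, 2 were higher and 7 lower in delta45 than in KD (median log2 change -0.36). Over all tested genes 29.2% were called higher and 30.7% lower.

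Cxcr4 (ENSMUSG00000045382, chromosome 1), the receptor for the chemokine CXCL12, is the only one of the 10 with its KD and delta45 libraries both above control. It held 23.9, 27.0 and 23.1 CPM in control and 64.8, 63.2 and 49.6 in KD. It held 36.2, 38.3 and 35.2 CPM in delta45 and 4.90, 5.12 and 5.18 in FL. The 4 groups did not overlap: KD was highest, then delta45, control and FL. KD was 2.40-fold above control (log2 difference 1.26 ± 0.124), delta45 was 1.62-fold below KD (-0.69 ± 0.121), and FL was 11.7-fold below KD (-3.54 ± 0.142) and 4.85-fold below control (-2.28 ± 0.141).

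The ligand Cxcl12 and the second CXCL12 receptor Ackr3 had 0 reads in all 12 libraries. Ccr2, a receptor of monocytes for CCL2, had 3, 47 and 8 reads over control, KD and delta45 and 518 over FL, 10.6-fold higher in FL than in KD (14.5 ± 1.08 against 1.38 CPM, edgeR adjusted p = 3.59e-07). Gng2, a G protein gamma subunit, was lower in KD than in control (5.98 ± 3.64 against 48.7 ± 5.36 CPM, log2 change -2.99 ± 0.301, and -3.65 without KD replicate 1). Pik3r5, the regulatory subunit of the phosphoinositide 3-kinase that G proteins switch on, was 10.1-fold lower in FL than in control (edgeR adjusted p = 3.24e-06). Of 23 tested genes of chemokine receptor signalling, 3 were higher and 9 lower in delta45 than in KD (median log2 change -0.27). Calls over all tested genes made 29.2% higher and 30.7% lower.

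Trpm2 (ENSMUSG00000009292, chromosome 10) encodes a calcium channel that ADP-ribose and oxidants open. It held 66.2, 61.9 and 61.2 CPM in control and 5.37, 6.73 and 5.69 in KD. It held 3.56, 3.71 and 3.18 CPM in delta45 and 1.46, 1.4 and 1.53 in FL. No groups overlapped, and the order was control, KD, delta45 and FL. Trpm2 was 10.7-fold, 18.0-fold and 42.6-fold below control in these 3 lines (log2 differences -3.42 ± 0.135, -4.17 ± 0.140 and -5.41 ± 0.159). The gene contains a pair of small nucleolar RNA genes on its own strand, with 47 and 44 bases of exon overlap, which can take part of its reads.

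Cd38, an enzyme that makes ADP-ribose, also had fewer reads outside control. It had 391 reads over the control libraries, 33 over KD, 0 over delta45 and 18 over FL, with a log2 change from control to KD of -3.50 (-4.27 without KD replicate 1, edgeR adjusted p = 3.56e-05 and 3.61e-06). Trpv2, another cation channel, was 3.30-fold lower in KD and 6.24-fold lower in FL than in control (edgeR adjusted p = 0.000129 and 3.11e-06). Orai2, a pore protein of store-operated calcium entry, was ordered otherwise. Its mean was 31.9 ± 2.55 CPM in control, 124 ± 17.4 in KD, 15.5 ± 1.11 in delta45 and 158 ± 8.57 in FL, with a 7.99-fold fall from KD to delta45 (edgeR adjusted p = 5.91e-09). Of 18 tested genes around TRPM2 and calcium entry, 4 were higher and 6 lower in delta45 than in KD (median log2 change -0.20). In that comparison 29.2% of all tested genes were called higher and 30.7% lower. Against control, 2 were higher and 9 lower in KD (4 higher with library totals as the scale), 2 and 10 in delta45 and 4 and 10 in FL, with medians of -0.41, -0.63 and -0.64. The calls lower make 50, 55.6 and 55.6% of the list, where 24.1, 32.5 and 31.2% of all tested genes were called lower. Such shares were not particular to this list. Against control, 53.8% of the LAPTM and receptor turnover list was lower in KD. The granule list had 62.5% lower in delta45 and 50% in FL. Smaller shares were lower in SYK and SRC kinase signalling (17.6% in KD) and in selectin ligand synthesis (25% in delta45).

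Laptm5 (ENSMUSG00000028581, chromosome 4), a lysosomal membrane protein of blood cells that brings receptors to degradation, ranked first of the 10 per exon length in control, KD and FL, and second, after Cxcr4, in delta45. It held 475, 432 and 420.4 CPM in control and 497, 408 and 388 in KD. It held 56.8, 57.8 and 64.9 CPM in delta45 and 351, 332 and 383 in FL. Control and KD overlapped, and their difference of -0.04 ± 0.114 took the other sign with library totals as the scale. FL lay just below both, and delta45 stood apart, 7.21-fold below KD (log2 difference -2.85 ± 0.123), 7.40-fold below control (-2.89 ± 0.123) and 5.95-fold below FL. KD, with the least Ldb1 mRNA, had more Laptm5 than delta45, whose Ldb1 reads, construct and own gene together, were near those of control. A link between Laptm5 and the Ldb1 level was not tested.

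Laptm4a, the broadly expressed relative of Laptm5, stood at 400.5 ± 27.2 CPM in control, 394 ± 90.2 in KD, 249.5 ± 4.07 in delta45 and 698 ± 42.1 in FL. It was 1.58-fold lower in delta45 than in KD and 2.80-fold higher in FL than in delta45 (edgeR adjusted p = 0.00119 and 1.41e-06). Laptm4b had 2 reads in all, both in delta45. Nedd4, the ubiquitin ligase that binds LAPTM5, was 2.46-fold higher in FL than in KD (edgeR adjusted p = 9.15e-06). Tnfaip3, the ubiquitin-editing enzyme A20, was 3.90-fold lower in delta45 than in KD (edgeR adjusted p = 9.15e-06). Of 13 tested genes of this list, 4 were higher and 4 lower in delta45 than in KD (median log2 change -0.08). Each is 30.8% of the list, close to the 29.2 and 30.7% of all tested genes called higher and lower. The 4 lower became 2 without delta45 replicate 2 or 3.

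Ncf4 (ENSMUSG00000071715, chromosome 15) encodes p40phox, a cytosolic subunit of the phagocyte NADPH oxidase. It held 87.8, 97.1 and 88.6 CPM in control and 23.1, 26.5 and 29.1 in KD. It held 5.30, 5.11 and 5.98 CPM in delta45 and 30.3, 34.9 and 37.2 in FL. The order was control, FL, KD and delta45, and no groups overlapped. KD was 3.48-fold below control (log2 difference -1.80 ± 0.123), FL was 1.31 times KD (0.39 ± 0.123), and delta45 was 4.80-fold below KD (-2.26 ± 0.135) and 6.27-fold below FL.

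Cyba (p22phox), the membrane subunit that pairs with the catalytic one, stood at 101 ± 11.0 CPM in control, 119.5 ± 11.1 in KD, 49.5 ± 7.16 in delta45 and 85.5 ± 16.9 in FL. It was 2.41-fold lower in delta45 than in KD and 1.73-fold higher in FL than in delta45 (edgeR adjusted p = 2.63e-05 and 0.000937), and every delta45 library lay below those of the other groups. Rac1, a GTPase that takes part in oxidase assembly, rose 1.83-fold in KD and was 1.82-fold lower in delta45 than in KD (edgeR adjusted p = 3.38e-05 and 3.12e-05). The catalytic subunit Cybb had 1 read over control, 1 over KD and 0 over delta45 and FL, and Ncf1 (p47phox) had 24, 4, 1 and 2 reads over the 4 groups.

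Prtn3 (ENSMUSG00000057729, chromosome 10) encodes proteinase 3 of neutrophil granules. It held 71.3, 60.5 and 55.0 CPM in control and 52.4, 25.6 and 19.2 in KD. It held 3.80, 3.58 and 5.53 CPM in delta45 and 6.04, 7.56 and 6.77 in FL. KD replicate 1 stood near the control libraries while the other KD libraries were lower, and delta45 and FL lay far below with no overlap between them. FL was 4.80-fold below KD (log2 difference -2.26 ± 0.319), but -1.66 on the log2 scale without KD replicate 1, and delta45 was 14.6-fold below control (-3.87 ± 0.331). Exons of Prtn3 share 159 bases with Plppr3 on the other strand, and without strand information reads there cannot be told apart.

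Other granule genes were scarce. Elane, the neighbouring neutrophil elastase, had 1, 2, 1 and 1 reads over control, KD, delta45 and FL, Ctsg had 6, 0, 0 and 0, and Mpo 36, 5, 6 and 43. Lyz2, a lysozyme of macrophages, had 156 and 214 reads over control and KD and 2 and 7 over delta45 and FL. Cst7, a cystatin that controls granule proteases, fell 3.01-fold from control to KD and was 9.82-fold lower in FL than in KD (edgeR adjusted p = 9.56e-05 and 1.70e-06). Serpinb1a, an inhibitor of proteinase 3 and elastase, was 4.24-fold lower in FL than in KD (edgeR adjusted p = 2.21e-05). Of 8 tested granule genes, 1 was higher and 4 were lower in delta45 than in KD (median log2 change -0.82). For all tested genes the shares called higher and lower were 29.2 and 30.7%. The 1 became 0 when replicate 2 or 3 of KD or replicate 1 of delta45 was left out, and the 4 became 2 without delta45 replicate 2.

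Set beside each other per exon length, Laptm5 had 117 computed RPKM (reads scaled by exon length and library size) in control, Ncf4 45.1, Prtn3 35.9 and Hcls1 27.0. Itgal had 14.5, Cxcr4 13.6, Selplg 7.38, Trpm2 5.06, Syk 3.59 and Lck 3.17. In KD the order was Laptm5 at 114 RPKM, Cxcr4 at 32.7, Prtn3 at 18.7 and Ncf4 at 13.0. In FL, Laptm5 at 93.9 RPKM stood far above Ncf4 at 16.9, and the other 8 genes were at or below 3.92. In delta45 Cxcr4 came first at 20.2 RPKM, Laptm5 followed at 15.8, and the other 8 genes were at or below 2.70. The summed level of the 10 genes was 922 ± 40.2 CPM in control, 610 ± 75.6 in KD, 121 ± 5.32 in delta45 and 413 ± 28.1 in FL. Laptm5 alone held 443 ± 28.9, 431 ± 58.4, 59.8 ± 4.40 and 356 ± 25.6 CPM of it.

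Counted by whether the libraries of 2 groups overlapped, 2 of the 10 genes were higher in KD than in control (Cxcr4 and Lck), 6 were lower and 2 overlapped. Of all tested genes, 25.5% were higher and 25.3% lower without overlap in that comparison. In FL against control 0 were higher, 9 lower and 1 overlapped (33.6 and 36.1% of all tested genes), and in delta45 against control 1 was higher (Cxcr4) and 9 lower (37.4 and 37.1%). Between FL and KD 1 was higher (Ncf4), 6 lower and 3 overlapped (28.4 and 31.3%). Between delta45 and KD 0 were higher, 7 lower and 3 overlapped (32.4 and 31%). Between FL and delta45 4 were higher (Laptm5, Ncf4, Prtn3 and Lck), 3 lower (Selplg, Cxcr4 and Trpm2) and 3 overlapped (33.7 and 35.2%). The 10 genes were chosen for such differences, so nothing is read from these counts, and comparisons that share a group share its libraries.

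By the root mean square difference of log2 CPM over the 12 libraries, each gene centred on its own mean, Syk and Hcls1 were the nearest pair among the 10 (0.446), followed by Syk and Itgal (0.614) and by Laptm5 and Ncf4 (0.653). Laptm5 and Lck differed by 0.767, and Hcls1 and Cxcr4 were farthest apart (3.97). Outside the 10, Cd48, an adhesion and costimulatory surface protein of white cells, was nearest to Syk (0.166), with 311, 322 and 683 reads in control, 2 over delta45 and 0 over KD and FL. Cdh19, a cadherin, was nearest to Hcls1 (0.196), with 2486 reads over control and 0 in all other libraries, and Gstk1, a mitochondrial glutathione transferase, was nearest to Itgal (0.407), with 555 and 0. Where a gene has 0 reads, its log2 CPM is set by the prior count of 2. Distances among genes without reads outside control, such as Syk, Hcls1, Cdh19 and Gstk1, therefore rest mainly on their control levels.

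The genes nearest to the others had reads in every group, some with few outside control. Rassf4, among the 3 nearest to Trpm2, had 338, 11, 13 and 1 reads over control, KD, delta45 and FL. Apbb1, Lats2 and S100a1 were nearest to Laptm5 (0.253, 0.271 and 0.291), and Lats2, a kinase of the Hippo pathway, held 31.9, 28.2, 5.62 and 33.4 CPM in control, KD, delta45 and FL. Gpsm3, a G protein regulator of white cells, was nearest to Ncf4 (0.317), at 33.8, 15.8, 2.88 and 17.3 CPM. Dtx4 was nearest to Selplg (0.465), Tcf19 to Cxcr4 (0.263), Rcor2 to Lck (0.225) and Cgnl1 to Trpm2 (0.450). Tcf19 held 33.4, 54.3, 45.5 and 5.92 CPM in the same order of groups. Rcor2, a corepressor subunit, held 101, 243, 31.2 and 77.1 CPM. Lrrc3, nearest to Prtn3 (0.333), lies beside Trpm2.

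Position along the chromosome was examined with the 2 tested genes on each side of each of the 10, or 40 genes. Called higher and lower were 11 and 8 in KD against control, 8 and 17 in delta45 against control, 9 and 15 in FL against control, 10 and 21 in delta45 against KD, 5 and 19 in FL against KD, and 11 and 9 in FL against delta45. Of all tested genes, 49.7% were called in either direction in KD against control, 64.4% in delta45 against control, 59.3% in FL against control, 59.9% in delta45 against KD, 58% in FL against KD and 52.8% in FL against delta45. By direction, 25.6% of all tested genes were called higher and 24.1% lower in KD against control. For the other comparisons, in the same order, these shares were 31.9 and 32.5%, 28.1 and 31.2%, 29.2 and 30.7%, 26.3 and 31.7%, and 25.8 and 27%. The median log2 change of the 40 was -0.43 in delta45 against KD and -0.31 in FL against KD, beside -0.01 and -0.06 over all tested genes. In the comparisons of KD, delta45 and FL with control it was 0.10, -0.23 and -0.07.

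**Figure D3:**
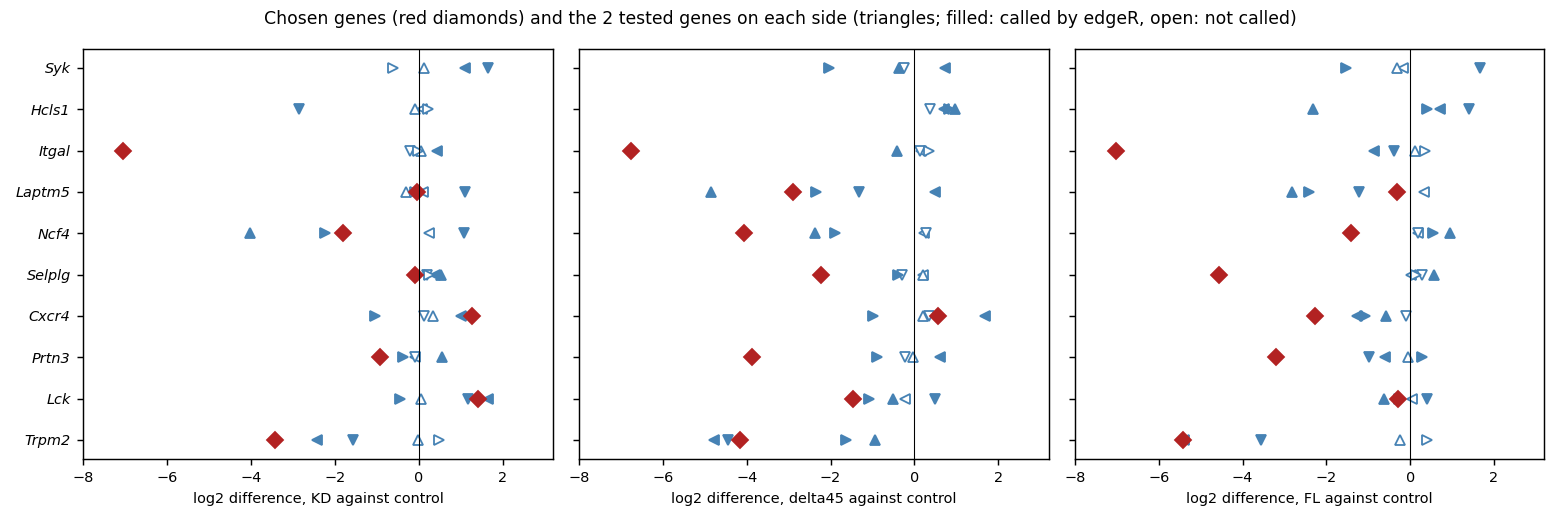
Log2 difference from control in KD, delta45 and FL for the 10 genes (red diamonds) and the 2 tested genes before (left-pointing and downward triangles) and after (upward and right-pointing triangles) each along the chromosome. Filled triangles were called by edgeR and open ones were not, and Syk and Hcls1 have no diamond because they had 0 reads in all 3 lines. Itgal lies at -7.05 to -6.77, far below its neighbours. Tspear and Lrrc3, before Trpm2, lie below 0 in each panel as Trpm2 does (in KD -2.44 and -1.56 beside -3.42), and the genes after Trpm2 lie nearer to the zero line.

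The neighbours of Syk, Hcls1 and Itgal kept reads in all groups. Beside Syk, Auh, a mitochondrial enzyme, stood at 36.0 ± 1.44, 39.2 ± 5.67, 28.0 ± 2.74 and 28.9 ± 3.18 CPM in control, KD, delta45 and FL. Gadd45g, a stress-response gene on the other side, was called higher in KD (log2 change 1.66 ± 0.401, edgeR adjusted p = 0.00404), although the KD libraries ranged over 57.9, 187 and 289 CPM. Nfil3, a transcription factor and the farther tested gene after Syk, was 4.08-fold lower in delta45 and 2.92-fold lower in FL than in control, where it held 10.9 ± 2.17 CPM (edgeR adjusted p = 2.27e-05 and 0.000251). Golgb1, a Golgi protein and the farther tested gene before Hcls1, stood at 160.3, 171, 260.4 and 260.3 CPM. Polq, a DNA polymerase directly after Hcls1, was 5.00-fold lower in FL than in control (edgeR adjusted p = 6.39e-07). Directly before Hcls1, the scarce 4930565N06Rik had 33, 4, 60 and 77 reads over control, KD, delta45 and FL. It was called 7.24-fold lower in KD and 2.635-fold higher in FL than in control (edgeR adjusted p = 0.011 and 0.0311). Beside Itgal, the zinc finger gene Zfp768 held 51.8, 54.0, 38.5 and 55.8 CPM.

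Each of the 10 genes had neighbours called in its own direction in at least 1 comparison and neighbours called the other way in at least 1. Both genes before Trpm2 were lower than in control, as Trpm2 was. Tspear stood at 5.24 ± 0.383 CPM in control and 0.933, 0.181 and 0.113 in KD, delta45 and FL (KD 5.41-fold and delta45 27.7-fold below control, edgeR adjusted p = 1.13e-05 and 7.14e-08). Lrrc3 stood at 12.4 ± 2.05 CPM in control and 4.13, 0.577 and 1.01 in the others. Its log2 change from control to KD was -1.56 ± 0.341 (edgeR adjusted p = 0.00214) and -2.27 without KD replicate 1. The genes after Trpm2, 1810043G02Rik and Pfkl, were not called in KD against control (log2 change -0.03 and 0.48) or in FL against control (-0.24 and 0.40). With library totals as the scale, 1810043G02Rik was called lower in FL (-0.46). In delta45 both were called lower than in control (-0.95 and -1.64, edgeR adjusted p = 0.000361 and 3.22e-05).

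Beyond Ncf4 lie Csf2rb2 and Csf2rb, beta chains of the receptors for interleukin 3 and GM-CSF, nearly identical copies whose reads can be lost or exchanged. Csf2rb2 held 1040 ± 78.4 CPM in control, 63.8 ± 18.6 in KD, 200.1 ± 2.90 in delta45 and 2020 ± 209 in FL, 16.3-fold lower in KD and 1.94-fold higher in FL than in control (edgeR adjusted p = 1.35e-08 and 0.000379). Csf2rb held 1719 ± 162, 366 ± 59.9, 459 ± 0.0547 and 2524 ± 173 CPM. In FL, then, both receptor genes stood above control while Ncf4 beside them stood at 37.5% of control.

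Marcksl1, the farther tested gene before Lck, was 3.13-fold higher in KD than in control, and Hdac1, the histone deacetylase directly beside Lck, 2.25-fold higher (edgeR adjusted p = 1.84e-06 and 2.98e-05). All 4 genes around Lck were called lower in delta45 than in KD, as were all 4 around Trpm2. Of all tested genes, 30.7% were called lower in this comparison. The same comparison called lower 3 of the 4 genes around Laptm5, 3 around Selplg (2 to 4 with 1 library left out), 2 around Prtn3, 1 around Ncf4 and 0 around Cxcr4. Around Syk it called 3 lower and around Itgal 1 lower and 1 higher. All 4 genes around Hcls1 were called higher in delta45 than in KD, as were 29.2% of all tested genes. Around Laptm5, Sdc3 (syndecan 3) was 5.31-fold and Ptpru, a receptor phosphatase, 4.80-fold lower in delta45 than in KD (edgeR adjusted p = 1.48e-07 and 3.73e-05). Mcm6, a subunit of the replicative helicase and the farther tested gene before Cxcr4, was 4.89-fold lower in FL than in KD, at 47.4 ± 4.41 against 232 ± 11.2 CPM (edgeR adjusted p = 4.22e-09). In delta45 it went the other way from Cxcr4, 1.58-fold higher than in KD at 368 ± 13.5 CPM (edgeR adjusted p = 7.87e-05). Laptm5 and Lck lie on the same chromosome with 21 tested genes between them, and Prtn3 and Trpm2 with 28.

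Over all 10 lists of partner genes, 169 of 243 genes passed the filter on low counts, and 21 of the 74 that did not had 0 reads in every library. In KD against control 37 were higher and 48 lower (25.6 and 24.1% of all tested genes were called higher and lower). In delta45 against KD 28 were higher and 79 lower (29.2 and 30.7%), and in delta45 against control 33 and 82 (31.9 and 32.5%). In FL against delta45 77 were higher and 29 lower (25.8 and 27%), or 56 and 46 with library totals as the scale. In FL against KD 62 were higher and 55 lower (26.3 and 31.7%), or 39 and 70 with library totals. In FL against control 56 were higher and 63 lower (28.1 and 31.2%), or 41 and 80. The median log2 change of the partner genes was -0.29 in delta45 against KD, -0.30 in delta45 against control and 0.33 in FL against delta45, where all tested genes had medians of -0.01, 0.01 and -0.01. It was -0.05, -0.03 and -0.10 in KD against control, FL against KD and FL against control.

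**Figure D4:**
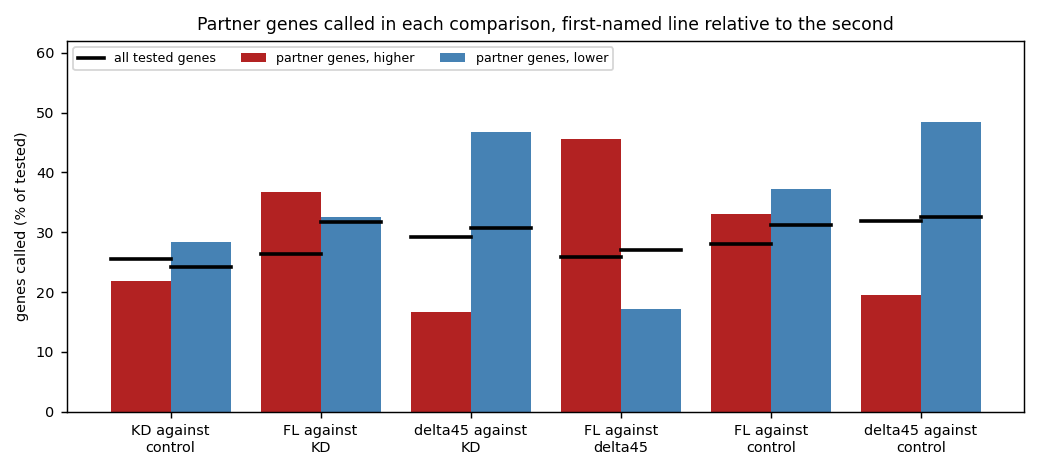
Percent of the 169 tested partner genes called higher (red bars) and lower (blue bars) by edgeR in each of the 6 comparisons, first-named line relative to the second. Black lines give the same percent over all 12837 tested genes. Both comparisons of delta45 with KD and with control have the most genes lower, at 46.7 and 48.5%, and FL against delta45 the most higher, at 45.6% (with TMM scaling).

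Of 12 tested leukocyte transcription factors, 3 were higher and 5 lower in delta45 than in KD (median log2 change -0.30), where 29.2 and 30.7% of all tested genes were. Spi1 (PU.1), the factor that drives many myeloid genes and is active in MEL cells, stood at 57.3, 62.5 and 47.4 CPM in control and 28.2, 27.9 and 24.7 in KD. It stood at 2.39, 3.51 and 3.03 CPM in delta45 and 11.8, 14.7 and 13.1 in FL. Its fall was 2.07-fold from control to KD, 2.05-fold from KD to FL and 9.11-fold from KD to delta45, and FL was 4.45-fold above delta45 (edgeR adjusted p = 8.82e-05, 9.85e-05, 3.20e-08 and 3.70e-07). Tcf7, a T cell factor, held 3.31, 11.3, 0.923 and 1.51 CPM, highest in KD as Lck was. Cebpb, a myeloid factor, was 3.95-fold lower in delta45 than in KD (edgeR adjusted p = 0.000257).

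Markers of other blood and tissue cells were examined beside these values. Of 10 T cell markers, 2 passed the filter. Cd8a, Cd2 and Trac had 0 reads in all 12 libraries, and the summed level was 29.9 to 37.3 CPM for control, 10.1 to 17.3 for KD, 4.16 to 5.81 for delta45 and 0.833 to 1.65 for FL. The 2 that passed went opposite ways from control to KD, Il2rg, a cytokine receptor chain, from 28.6 ± 3.65 to 0.919 ± 0.116 CPM and Cd3g, a chain of the T cell receptor complex, from 5.30 ± 0.195 to 13.1 ± 3.49 (edgeR adjusted p = 3.72e-08 and 0.000915). Of 8 B cell markers, 1 passed, Ms4a1 and Pax5 were at 0 reads throughout, and the sum was 6.11 to 6.35 CPM for control, 0.543 to 1.53 for KD, 0.656 to 1.02 for delta45 and 1.53 to 2.50 for FL. Of 8 neutrophil markers, 1 passed, S100a8 and S100a9 were at 0 throughout, and the sum was 1.20 to 2.23 CPM for control, 0.175 to 0.349 for KD, 0.188 to 0.447 for delta45 and 1.04 to 1.41 for FL. Of 8 macrophage markers, 6 passed, and the sum was 18.5 to 19.0 CPM for control, 6.30 to 16.8 for KD, 4.92 to 6.39 for delta45 and 5.81 to 8.0 for FL. Members of this list differed in direction. Fcgr1 held 9.73, 0.492, 0.235 and 0.568 CPM in control, KD, delta45 and FL, and Cd68 held 0.614, 2.13, 4.65 and 3.73. Mast cell markers (2 of 7 passed; Ms4a2, Tpsb2 and Mcpt8 at 0) summed to 6.52 to 7.22, 6.08 to 9.20, 0.984 to 1.34 and 1.35 to 2.41 CPM in control, KD, delta45 and FL. Stromal markers (3 of 7 passed; Col1a2, Dcn and Lum at 0) summed to 38.0 to 44.0, 21.6 to 52.3, 10.7 to 12.7 and 21.9 to 29.2 CPM. Megakaryocyte markers (6 of 7 passed) summed to 837 to 931, 798 to 842, 179 to 198 and 2814 to 2920 CPM, but their members moved in opposite directions. Pf4, a platelet chemokine, stood at 72.2 ± 6.91 CPM in control and 484 ± 37.6 in KD, and Itga2b, an integrin chain of platelets, at 774 ± 54.7 and 266.5 ± 13.8 (edgeR adjusted p = 5.79e-09 and 1.45e-07). The part of these marker levels in the values of the 10 genes was not tested.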

How the data were processed

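Polyadenylated RNA was sequenced in 12 libraries, 4 groups of 3, prepared with RNeasy and TruSeq V2 kits per the labels' protocols; that TruSeq version does not mark the strand. The authors deposited whole-number read counts per Ensembl gene, not normalized, 37991 genes a file. The submitters' processing notes name build mm9 and the tools TopHat 1.4.1, HTSeq 0.5.3p9, cutadapt 1.1 and DESeq 1.10.1; the sources used here give neither settings nor annotation. The 5 rows that name no gene were left out: of the tallied reads, 38.69 to 53.31% had several alignments, 2.117 to 6.133% lay outside genes and 1.33 to 1.809% were ambiguous. Symbols from a supplied table matched 32919 identifiers. Gene order, exon lengths and overlaps came from GENCODE for GRCm38, not the authors' build, so none of its coordinates is given. Promoter sequences are RefSeq's.

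Counts were filtered by filterByExpr (12837 genes kept), scaled by TMM and modelled in edgeR 4.0.16 (R 4.3.3, glmQLFit and glmQLFTest, a mean for each group). In each of 6 comparisons, an adjusted p (Benjamini-Hochberg) under 0.05 made a call. The fit was tested on simulated data. With 3 libraries against 3, the smallest two-sided p of an exact permutation test is 0.1. CPM and RPKM were calculated from the deposited counts. A group without reads was set at 3 reads over the group for a bound. Libraries of a group correlated at 0.9551 to 0.9942 (Pearson, log2 CPM), and none agreed within counting noise (smallest chi-square per degree of freedom 2.182).

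The 10 genes, 10 partner lists and 8 marker lists were chosen with earlier results of these data known. The genes named were Ldb1, the 10, their direct partners, up to 3 other called genes a list with the largest change and 5 CPM or more in 1 group, called neighbours at that level (2 tested genes a side, some others named for contrast after their values were seen), and the 3 genes nearest to each of the 10 by root mean square difference (log2 CPM, prior count 2). A few listed genes, and the count over the oxidase list, are not reported here. Alternatives were RLE scaling, library totals, no filter, a replicate block, DESeq2 1.42.0 and leaving out each library.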

Additional observations from a re-analysis of the deposited data

How the results depend on the processing

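Counts of called genes for all genes, partner genes and neighbours stayed within 1.5 times of the values given under RLE scaling, no filter on low counts, the replicate block and DESeq2. Leaving out 1 library at a time did the same: all-gene counts ran from 5543 to 9046, partner counts in 1 direction from 25 to 84 and neighbour counts from 17 to 31. With library totals as the scale, partner genes higher in FL than in KD came to 39 in place of 62, and partner genes lower in FL than in delta45 to 46 in place of 29. That scale moved the median log2 change of all genes to -0.33 in FL against KD, -0.28 in FL against delta45 and -0.23 in FL against control, so changes in FL are relative to it. Among called genes, the share that was higher went from 45.43 to 26.67%, from 48.83 to 29.2% and from 47.41 to 31.79% in these 3 comparisons, and among called partner genes from 52.99 to 35.78%, from 72.64 to 54.9% and from 47.06 to 33.88%.

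The labels do not say what a replicate number shares, and the libraries were not treated as paired, since correlations of same-numbered deviations ran from -0.1965 to 0.2688 with 9 of 18 over 0.1. In each comparison with control 2 of 6 libraries correlated best with their own number. Among KD, delta45 and FL all correlations were positive (0.03148 to 0.2478) and 5 of 6 libraries did so in each comparison, a hint from the data and not from the design. With the replicate block 6593 genes were called in KD against control (6380 without it) and 7849 in delta45 against KD (7693 without it). It moved no count of called genes by over 1.5 times.

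Of 504 values of named genes, the block kept 499 calls, RLE 499, DESeq2 496 (2 genes a comparison had no adjusted p), no filter 489 and library totals 459. Leaving out libraries kept 5799 of 6048, and 1 of them turned: Gng2 in FL against KD was -0.16 (edgeR adjusted p = 0.686), 0.57 without KD replicate 1, where it was called, and -0.41 at the lowest, without KD replicate 3. For the 10 genes, 10 of 912 alternative values changed sign, all of Itgal among KD, delta45 and FL or of Laptm5 in KD against control. The log2 bounds for Syk and Hcls1 shrank by up to 0.951, in FL without replicate 3, and depth limits what 0 reads can show. Likeness was recomputed after the data were seen, as were the counts within each list.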
